A study of Mus musculus with 180 samples.

Results

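The genes described here encode the proteins of the cytosolic ribosome. They were chosen by symbol (Rpl or Rps followed by a digit, or *Rplp0*, *Rplp1*, *Rplp2* or *Rpsa*, without pseudogene symbols in -ps and without the S6 kinase genes) and selected on 1 measured value, a mean of at least 10 over all samples. Of the 45070 rows of the expression table, 94 carried such a symbol and 85 of these reached the mean, against 12714 rows of any kind that reached it. No fold change entered this choice, but the gene group and its comparison between inhibitors were picked with results of the same data known, so counts over the group are given as a description beside the share of all rows. The 85 rows comprise 30 proteins of the small (40S) subunit, 40 of the large (60S) subunit, the 3 proteins of the P-stalk, 6 paralogs, 5 further copies and *Rps19bp1*, which shares the symbol but encodes a protein that binds RPS19 and is not part of the ribosome. Just inside the limit lay *Rpl10* with a mean of 14.6, *Rpl21* with 19.1 and *Rpl13* with 21.5, and just outside it *Rpl7a* with 7.81, *Rpl39l* with 7.18 and *Rps23rg1* with 6.61.

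The ribosome is built in the nucleolus from ribosomal RNA and one copy of nearly every ribosomal protein, so the cell makes these proteins together. Their mRNAs are abundant and short and begin with a C followed by a run of pyrimidines, the 5′ terminal oligopyrimidine (TOP) motif, through which the kinase complex mTORC1 controls their translation by way of LARP1 and the 4E-BPs. PI3K acts upstream of mTORC1 through AKT, and S6 kinase, a target of mTORC1, phosphorylates RPS6. This control acts on translation, and sequencing of polyA RNA measures only the amount of the mRNA.

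The samples were bone marrow-derived macrophages (BMDM), cells grown from the bone marrow of wild type mice, which the study took from young adult male C57/BL6 animals. A clinical kinase inhibitor (CKI), or its solvent DMSO, was given for 1 h before LPS, a ligand of TLR4, was added at 10 ng/mL for the last 2 h. All samples, controls included, received LPS, so no unstimulated cells enter these comparisons. There were 3 samples for each of 58 CKIs and 6 for DMSO, in 2 labelled sets of 3, or 180 samples in 59 groups. The 7 CKIs with PI3K or mTOR as designated targets in the study's annotation formed the class that was compared with the other 51. Of these 7, AZD2014, Apitolisib, BGT226, PF04691502 and Omipalisib have mTOR among their listed targets, whereas AZD8186 and TG100115 have PI3K isoforms without mTOR. Each CKI was used at a concentration set by its in vitro binding to an intended target, so concentrations differ between CKIs. That target was not always the designated one, and the study dosed Apitolisib for JAK1.

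Values are normalized read counts per gene, scaled by the authors on genes that varied little and rounded to whole numbers. They summed to between 9477340 and 12273300 per sample. The median total was 10331200 in DMSO, 10464000 with the other CKIs and 11011500 in the class, so it was somewhat higher in the class. All 9 macrophage markers were expressed, led by *Lyz2* with a mean of 82018 and *Csf1r* with 25244.6, while markers of erythroid cells summed to at most 7 and those of T cells to at most 31 in any sample. Granulocyte markers, led by *S100a8*, summed to between 125 and 689 in the class, 141 and 1092 with the other CKIs and 171 and 434 in DMSO. Mitochondrially encoded transcripts took 0.581 to 4.45% of the total in the class, 0.525 to 4.47% with the other CKIs and 0.759 to 1.94% in DMSO. One DMSO sample, replicate 2 of set 2, stood low in the ribosomal protein rows. Counts and medians against DMSO are given with and without it for the 5 mTOR-listed CKIs. Fold changes of single rows and the counts of the remaining CKIs include it.

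Some of these genes show the feature the group is known for in their first bases. The first bases of the rows the results turn on are printed below. The windows run from 10 bases before the RefSeq start site to 20 bases from it (GRCm38.p6, the assembly called mm10 in the deposited table), so they cover the end of the promoter and the beginning of the first exon. The capitals mark a C followed by at least 4 further C or T, searched on the strand of the gene within 5 bases of the start. The first 4 rows were higher in the class of 7 than with the other CKIs and hold such a tract. They lie at chr4:86857348-86857377 (minus strand), chr17:33955646-33955675 (minus), chr3:90213629-90213658 (minus) and chr3:28805498-28805527 (plus).
Rps6: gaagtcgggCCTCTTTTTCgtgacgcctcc
Rps18: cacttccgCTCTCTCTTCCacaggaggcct
Rps27: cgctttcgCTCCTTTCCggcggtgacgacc
Rpl22l1: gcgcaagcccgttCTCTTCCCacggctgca
The next 3 were higher too but have no tract that begins within 5 bases of the start. Runs that begin further from the start, as in *Rplp0* and *Rpl36a*, are not marked. These 3 lie at chr5:115559457-115559486 (plus), chrX:134585644-134585673 (plus) and chr9:120127756-120127785 (plus).
Rplp0: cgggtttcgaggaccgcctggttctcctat
Rpl36a: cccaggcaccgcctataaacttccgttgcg
Rpsa: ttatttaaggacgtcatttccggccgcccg
The last 3 were the rows lower in the class than with the other CKIs, at chr9:66946076-66946105 (plus), chr12:69184048-69184077 (minus) and chr15:80264287-80264316 (minus).
Rps27l: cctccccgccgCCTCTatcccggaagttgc
Rpl36al: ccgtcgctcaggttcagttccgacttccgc
Rps19bp1: cggaagtagctcgccgcgtgtgggcggggc

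Start sites from RefSeq were found for 63 of the 85 rows, and 30 of these genes (47.6%) had a tract within 5 bases of a start, with 5 to 20 bases and a median of 8. In 4 of the 30 the marked tract began at the annotated start base itself. Among all 27025 genes in the same table the share was 21.2%, among the 9101 genes tested here it was 23.8%, and among the mitochondrial ribosomal protein genes it was 24.6%. The tract was as frequent among the 40S proteins (11 of 23) as among the 60S proteins (14 of 30). Rows with a tract and rows without one had similar class differences, described below, with medians of 0.16 (n = 30) and 0.19 (n = 33) on the log2 scale. A missing match says only that these letters are not at the annotated start, which is often a few bases from the true one.

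Ribosomal protein rows were among the most abundant of the table. Their means over all samples ran from 14.6 to 16426 with a median of 2983, against a median of 175 for all rows tested, and their gene models were short, with a median of 740 bases against 2807. Per kilobase of gene model, the highest levels in DMSO were those of *Rpl41* with 22877, *Rps29* with 16292 and *Rplp1* with 15430 normalized reads. *Rpl41* encodes the smallest protein of the ribosome, *Rps29* a zinc-binding protein of the small subunit and *Rplp1* an acidic protein of the P-stalk, which recruits translation factors. The lowest levels were those of *Rpl21* with 8.53 and *Rpl10* with 12.4 per kilobase.

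These low values belong to genes whose processed pseudogenes, reverse-transcribed copies elsewhere in the genome, have rows of their own in the table. In all, 235 rows carried a -ps symbol of this family, 117 of them with a mean of at least 10, and 54 of the 85 rows had at least 1 such copy. *Rpl10*, whose protein joins the 60S subunit at a late step, had a mean of 14.6, while *Rpl10-ps6* alone had 10802. *Rps6* had 684.5 and *Rps6-ps4* 5926, *Rps19* 826 and *Rps19-ps6* 7453, and *Rpl13* 21.5 and *Rpl13-ps3* 5938. For 17 of the 85 rows the -ps rows held more than 50% of the sum of parent and copies. The same held for *Rpl9*, with 4.16 against 2448 for its highest copy, which fell under the limit of 10. Since only 1 alignment was kept for each read, reads of a gene and its near-identical copies cannot be told apart here, and levels of single rows are uncertain where such copies exist. With parent and -ps rows summed, 76 of 77 ribosomal proteins could be tested, and the sums gave 40 higher and 0 lower in the class comparison by limma, beside 1623 higher of 12600 rows of any kind, with 76 of the 76 differences above 0 and a median of 0.18. These sums were chosen after seeing the data.

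**Figure D1:**
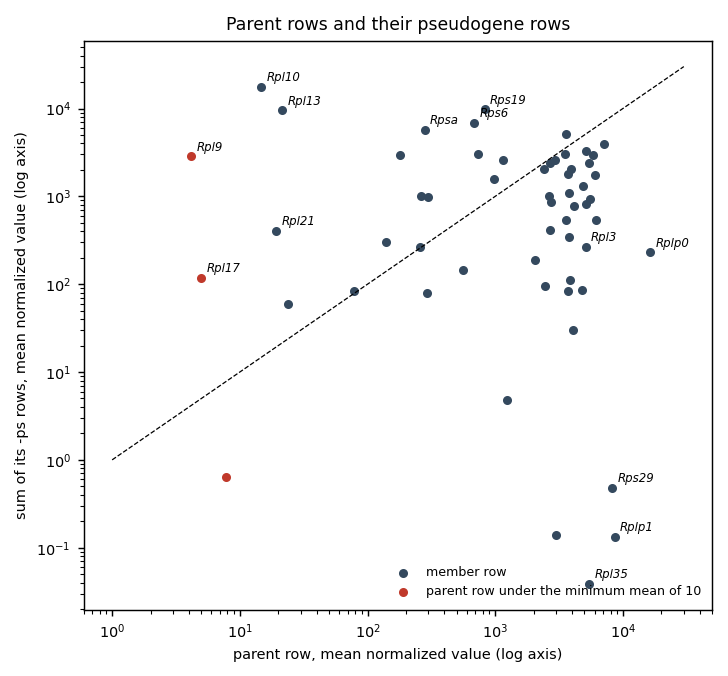
Mean normalized value over the 180 samples of each parent row (horizontal, log axis) against the sum of its -ps rows (vertical, log axis), 1 point per gene shown. Points above the dashed line of equal values have more signal in the pseudogene rows, as for *Rpl10* with 14.6 in the parent row, and the red points are parent rows under the mean of 10.

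The summed share of the 85 rows in the total was low in DMSO and high with most mTOR-listed CKIs. In the 6 DMSO samples it was 2.47, 2.26 and 2.46% in set 1 and 2.45, 2.05 and 2.39% in set 2. With AZD2014 it was 3.40, 3.49 and 3.47%, with PF04691502 3.23, 3.28 and 2.81%, with Omipalisib 3.09, 3.06 and 2.84%, with Apitolisib 2.62, 3.06 and 3.08%, and with BGT226 2.93, 2.56 and 2.64%. All 15 of these samples lay above the 6 of DMSO. The PI3K inhibitors without mTOR overlapped with DMSO in 1 sample, with 2.71, 3.12 and 2.45% for AZD8186 and 2.57, 2.62 and 2.85% for TG100115. The other CKIs covered both ranges, from 1.85 to 3.57% with a median of 2.77% over 153 samples. By mean share AZD2014 ranked first of the 58 CKIs with 3.45% ± 0.0504 (SD, n = 3), PF04691502 4th and Omipalisib 5th, with Afatinib and Filgotinib between them, whereas Apitolisib ranked 11th, AZD8186 32nd, BGT226 38th and TG100115 40th.

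**Figure D2:**
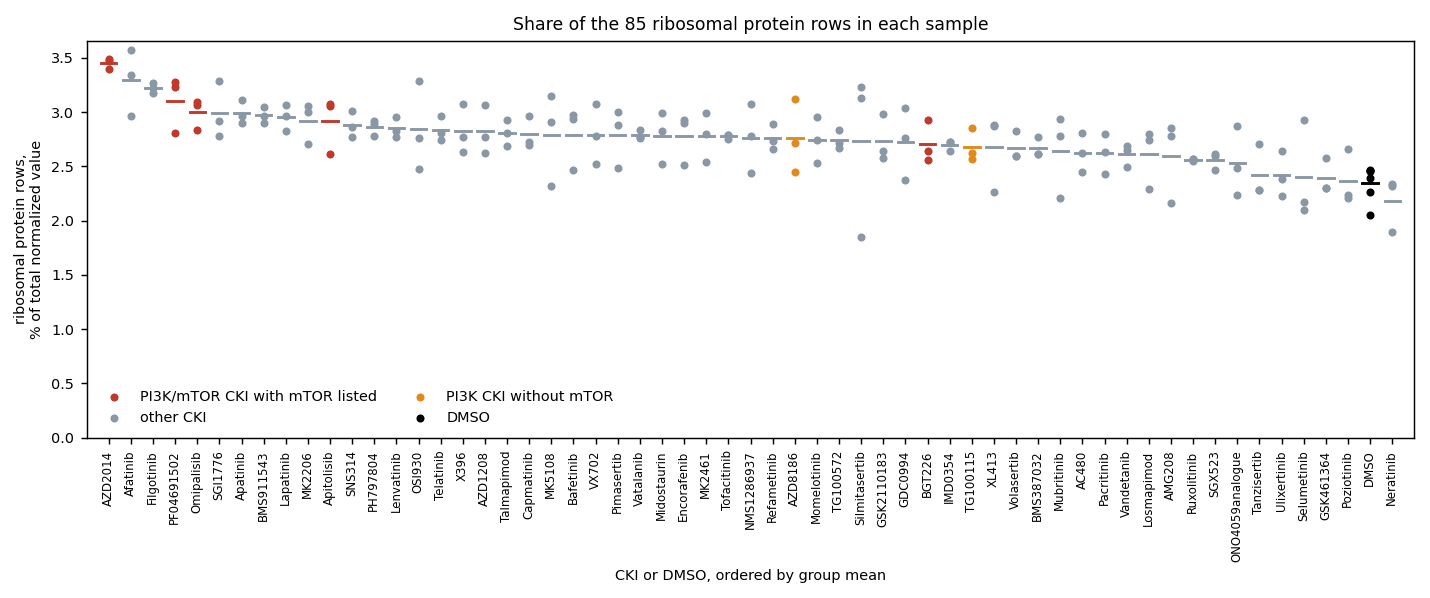
Share of the total normalized value held by the 85 rows in each sample (points) and its group mean (bars), with 3 samples for each of the 58 CKIs and 6 for DMSO, ordered by mean. AZD2014 lies at the left end with a mean of 3.45%, and DMSO is the last but one with 2.35%.

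The first comparison asked whether the ribosomal protein mRNAs differed between the 7 PI3K and mTOR inhibitors and the other 51 CKIs, with 1 mean per CKI and DMSO left out. Of the 85 rows, 43 were higher and 3 were lower in the class, and 39 were not called (limma on log2(value + 1), adjusted p under 0.05). Of all 12714 rows tested, 13% were called higher and 8.57% lower. The median difference of the 85 rows was 0.17 on the log2 scale, against 0.03 for all rows, and 81 of the 85 differences were above 0. The differences were small, from -0.28 to 0.33, and rose or lower in the paragraphs on this comparison means relative to the other CKIs, not to DMSO. Called higher were 18 of 30 proteins of the 40S subunit with a median of 0.17, 19 of 40 of the 60S subunit with a median of 0.17, 1 of the 3 of the P-stalk, 1 of 6 paralogs and 4 of 5 further copies. The 3 lower rows were *Rps19bp1* and the paralogs *Rps27l* and *Rpl36al*, so no core protein of either subunit was called lower.

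The count, unlike the direction, depended on few CKIs and on the scaling. It was 8 without Omipalisib, 11 without PF04691502, 14 without AZD2014, 16 without replicate 1 and 23 without replicate 2 of every CKI, 22 after scaling the samples again by the median of ratios and 22 with no filter on low rows, with medians of 0.14 after the new scaling, 0.16 with no filter and 0.15 to 0.20 over all fits that left out a CKI or a replicate. The count of lower rows was 1 without AZD2014, BGT226, Omipalisib, replicate 1 or replicate 3. No share of all rows was taken for the fits with no filter or with a CKI or replicate left out. The new scaling also turned 1656 higher and 1090 lower of all rows into 1381 and 1364. With only the 5 mTOR-listed CKIs against the 51, 59 of the 85 rows were higher and 3 lower, beside 18.6% of all rows called higher, with a median of 0.23.

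**Figure D3:**
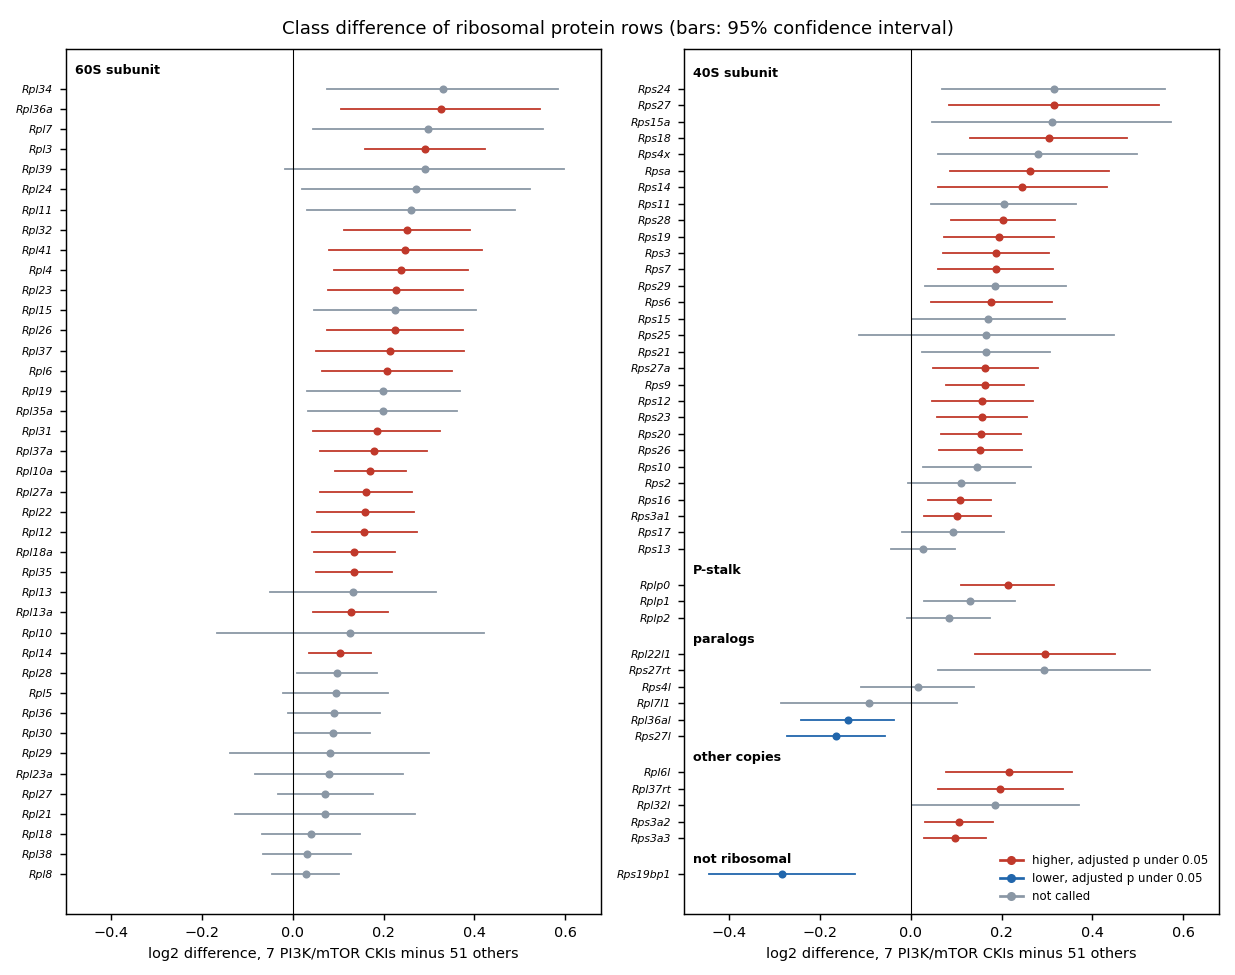
Difference between the mean of the 7 PI3K and mTOR inhibitors and the mean of the other 51 CKIs for 84 of the 85 rows (points, log2 scale) with its 95% confidence interval (bars), grouped by subunit. The core proteins lie between 0.03 and 0.33, and the 3 blue rows, *Rpl36al*, *Rps27l* and *Rps19bp1*, lie below 0.

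Among the proteins of the large subunit, *Rpl3*, which helps to form the peptidyl transferase centre, showed one of the clearest differences. Its values were 6803, 6374 and 7102 with AZD2014, 7179, 5994 and 6505 with BGT226, 6719, 6449 and 5938 with PF04691502, 6645, 6876 and 6132 with Omipalisib and 5520, 5866 and 6091 with Apitolisib. They were 5122, 5368 and 4556 with AZD8186 and 5314, 5036 and 5776 with TG100115. DMSO samples ran from 3168 over a median of 4440.5 to 4977, and the 153 samples of other CKIs from 2557 over 5167 to 6411. The means of all 7 CKIs exceeded the median of the other CKI means, and the difference was 0.29 ± 0.066 (SE, adjusted p = 0.00114).

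*Rpl36a*, whose protein lies at the tRNA exit site, had the largest called difference, 0.33 ± 0.11 (adjusted p = 0.0267), with 207 to 479 in the class, a median of 285, and 99 to 472 with the other CKIs, a median of 255. The ranges overlapped almost entirely, and 6 of 7 CKI means exceeded the median of the others. The call was lost with no filter and without AZD2014, Apitolisib, PF04691502 or Omipalisib (adjusted p from 0.0527 to 0.0803). *Rpl41* rose by 0.25 ± 0.085 (adjusted p = 0.0291), with a median of 15110 in the class, 13552 with the other CKIs and 9272 in DMSO, but not under the same 5 settings (adjusted p from 0.0597 to 0.101). *Rpl13a*, known as part of a complex that silences inflammatory mRNAs in myeloid cells, rose by 0.13 ± 0.041 (adjusted p = 0.0208), with a median of 7668 against 7055. *Rpl13a* was not called after the new scaling or without AZD2014, PF04691502 or Omipalisib (adjusted p from 0.077 to 0.126). *Rpl22*, which bulk translation does not require, rose by 0.16 ± 0.053 (adjusted p = 0.0254), with 543 to 900 in the class and 425 to 874 with the others, and lost its call under those settings and without BGT226 (adjusted p from 0.0588 to 0.0937).

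*Rpl5* and *Rpl11*, whose proteins carry the 5S RNA and bind MDM2 when ribosome assembly is disturbed, did not pass. *Rpl5* differed by 0.09 ± 0.058 (adjusted p = 0.251) with medians of 3874 and 3664, and *Rpl11* by 0.26 ± 0.11 (adjusted p = 0.0951) with medians of 3432 and 2799. *Rpl10* stood at 5 to 34 in the class and 2 to 39 with the other CKIs and was not called (0.13 ± 0.15, adjusted p = 0.569), while the sum of *Rpl10* and its copies gave 0.24 ± 0.058 (adjusted p = 0.00255). *Rpl34* had the largest difference of the 85 rows, 0.33 ± 0.13, without being called (adjusted p = 0.0536).

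In the small subunit, *Rps18*, a protein of the head of the subunit, ran from 4758 over 6800 to 8276 in the class and from 2208 over 5670 to 7942 with the other CKIs, and 2826 to 5480 in DMSO. All 7 CKI means lay above the median of the others and none of the 51 other means reached the highest of them, with a difference of 0.30 ± 0.086 (adjusted p = 0.00853). *Rps27* rose by 0.31 ± 0.12 (adjusted p = 0.0422), with 2140 to 7089 in the class and 1587 to 6682 with the others, so that the samples overlapped widely, and was not called with no filter or without AZD2014, Apitolisib, BGT226, PF04691502 or Omipalisib (adjusted p from 0.067 to 0.125). *Rps3*, also known as a partner of NF-κB p65, rose by 0.19 ± 0.058 (adjusted p = 0.0159), with medians of 8190 in the class, 7279 with the other CKIs and 5527.5 in DMSO, and lost its call without Omipalisib (adjusted p = 0.067). *Rps6*, the substrate of S6 kinase, ran from 593 over 752 to 953 in the class, from 360 over 682 to 988 with the others and from 334 to 608 in DMSO. Its difference was 0.18 ± 0.067 (adjusted p = 0.0467), higher in 7 of 7 CKI means, and with its pseudogene rows added 0.19 ± 0.061 (adjusted p = 0.0194). The call of the *Rps6* row was lost in 8 of 14 settings, with no filter, after the new scaling, without the variance trend and without AZD2014, Apitolisib, PF04691502, Omipalisib or TG100115 (adjusted p from 0.0503 to 0.117).

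*Rpsa*, which also serves as a laminin receptor, rose by 0.26 ± 0.088 (adjusted p = 0.0266), *Rps19*, the gene most often mutated in Diamond-Blackfan anaemia, by 0.19 ± 0.060 (adjusted p = 0.0169) and *Rps27a*, which encodes a fusion with ubiquitin, by 0.16 ± 0.058 (adjusted p = 0.0337). *Rpsa* was not called with no filter or without AZD2014, BGT226, PF04691502 or Omipalisib (adjusted p from 0.0508 to 0.0872), and *Rps19* without PF04691502 or Omipalisib (adjusted p = 0.0605 and 0.0619). *Rps27a* was not called with no filter, after the new scaling or without AZD2014, Apitolisib, PF04691502 or Omipalisib (adjusted p from 0.0546 to 0.118). *Rps4x* differed by 0.28 ± 0.11 and was not called (adjusted p = 0.0584). In the P-stalk, *Rplp0*, the scaffold on which the stalk stands, rose by 0.21 ± 0.051 (adjusted p = 0.00192). Its values ran from 15464 over 18769 to 21586 in the class, all above the highest DMSO value of 15066, and from 8281 over 16438 to 20932 with the other CKIs. The acidic proteins *Rplp1* (0.13 ± 0.050, adjusted p = 0.0536) and *Rplp2* (0.08 ± 0.045, adjusted p = 0.186) did not pass.

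The paralogs did not move together. *Rpl22l1*, the paralog of *Rpl22*, rose by 0.30 ± 0.077 (adjusted p = 0.00422), with 789 to 1290 in the class, 487 to 1310 with the others and 446 to 928 in DMSO, and the means of all 7 CKIs lay above the median of the others. *Rps27l*, a paralog of *Rps27* and a known target of p53, was lower by 0.16 ± 0.054 (log2 difference -0.16, adjusted p = 0.0226), while *Rps27* itself was higher. Its values were 902, 900 and 678 with Omipalisib and 941, 934 and 729 with BGT226, but 890, 1527 and 1404 with Apitolisib and 1016, 1501 and 1221 with TG100115, so the class was divided, with 5 of 7 CKI means under the median of the others, and its median of 1016 was close to the 1033.5 of DMSO (911 to 1156). *Rpl36al*, the paralog of *Rpl36a*, was likewise divided, with 2234, 2382 and 2099 with BGT226 and 2848, 3707 and 3555 with Apitolisib, for a difference of -0.14 ± 0.051 (adjusted p = 0.0423). Its median was 2803 in the class, 3117 with the other CKIs and 2588.5 in DMSO, so the class was lower only than the other CKIs. *Rps27l* was not called without BGT226 (adjusted p = 0.143) or without Omipalisib (adjusted p = 0.194), and *Rpl36al* was not called without BGT226 (adjusted p = 0.292), without Omipalisib (adjusted p = 0.225), without PF04691502 (adjusted p = 0.103), without AZD2014 (adjusted p = 0.0773) or with no filter (adjusted p = 0.0834). *Rpl7l1* (-0.09 ± 0.097, adjusted p = 0.529), *Rps27rt* (0.29 ± 0.12, adjusted p = 0.0625) and *Rps4l* (0.02 ± 0.062, adjusted p = 0.888) were not called, and *Rps4l* changed sign, to -0.012, after the new scaling.

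*Rps19bp1*, also known as an activator of the deacetylase SIRT1, had the lowest difference, -0.28 ± 0.080 (adjusted p = 0.00877). It stood at 115, 113 and 154 with AZD2014, below all 6 DMSO samples, the lowest of which had 230, and between 159 and 322 with the other 6 CKIs of the class. The difference rested on AZD2014, without which it was -0.16 (adjusted p = 0.119). Outside the symbol rule, *Fau*, the precursor of RPS30 (0.15 ± 0.064, adjusted p = 0.0947), and *Rack1*, a scaffold on the 40S head (0.11 ± 0.046, adjusted p = 0.0847), did not pass.

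Other gene lists of the same comparison show where ribosomal proteins stood apart in level. Of 23 other mRNAs known to carry a TOP motif, 10 were higher and 0 lower (12 and 0 at an unadjusted p under 0.05, limma), with a median of 0.12. At the unadjusted cutoff 2611 of all 12714 rows were higher and 1741 lower. The TOP mRNAs were led by the snoRNA host transcripts *Snhg1* (0.99 ± 0.24, adjusted p = 0.00232) and *Gas5* (0.82 ± 0.15, adjusted p = 8.25e-05), followed by the initiation factor gene *Eif4a2* (0.54 ± 0.11, adjusted p = 0.000311). *Snhg1* was a low row, with mean log2 values of 4.24 in the class and 3.25 with the other CKIs. For *Snhg1* 4 of the 7 CKI means of the class lay above the median of the others, against 6 for *Gas5* and 6 for *Eif4a2*. The -ps rows had 32 of 117 higher and a median of 0.16. Genes of ribosome biogenesis moved the other way, with 0 of 42 higher (0 also at an unadjusted p under 0.05), 20 lower and a median of -0.18. Among them *Ppan* (-0.58 ± 0.13, adjusted p = 0.00107), *Nop2* (-0.46 ± 0.090, adjusted p = 0.000211) and *Bysl* (-0.39 ± 0.076, adjusted p = 0.000194) encode nucleolar factors that process ribosomal RNA or assemble the subunits.

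The mitochondrial ribosomal proteins, Mrpl and Mrps, had 2 of 83 higher and 26 lower with a median of -0.07, the complex I genes (Nduf) 0 of 53 higher (0 at an unadjusted p under 0.05) and 10 lower with a median of -0.06, and the proteasome genes (Psm) 1 of 51 higher and 10 lower with a median of -0.02. Of the mTOR pathway genes, 6 of 38 were higher and 4 lower, among them *Pdcd4*, a translation inhibitor degraded after phosphorylation by S6 kinase (0.65 ± 0.13, adjusted p = 0.000236), *Pik3ca*, a catalytic subunit of PI3K (0.50 ± 0.12, adjusted p = 0.00157), and *Sesn2*, a stress-induced inhibitor of mTORC1 (-0.54 ± 0.18, adjusted p = 0.0241). Other rows with a gene model of at most 1000 bases, as short as most ribosomal protein rows, had a median of 0.04 and 10.1% called higher. The 17 mitochondrially encoded rows had a median of 0.29 with 0 called (0 also at an unadjusted p under 0.05). A fit of all samples that held a term for each sample's mitochondrial share and the replicate block gave 60 higher and 4 lower ribosomal protein rows beside 21.1% of all rows higher, with a median of 0.14. The fit of all samples without these terms gave 62 higher and 3 lower beside 20.4%. Both count the 3 samples of a CKI separately, so they are not set against the 43 rows of the fit on CKI means.

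**Figure D4:**
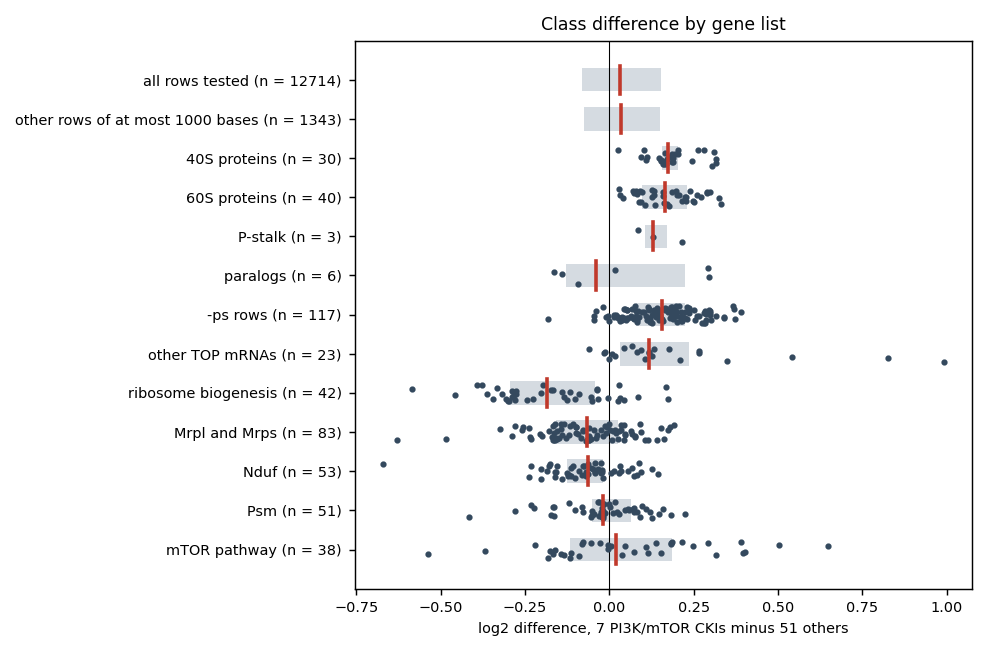
Class difference (log2 scale) of the rows in each list (points), with the median (red bar) and the middle 50% of the values (grey box); for the large first lists only the box and median are drawn. The 40S and 60S proteins lie right of 0 with medians of 0.17 each, and ribosome biogenesis genes lie left of it with a median of -0.18.

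The second comparison set each CKI against the 6 DMSO samples, which all these fold changes share. AZD2014 gave 63 of the 85 rows higher, beside 6.06% of all rows, with a median of 0.57. Omipalisib gave 62 beside 17.5% with a median of 0.55, PF04691502 57 beside 8.86% with a median of 0.55, and Apitolisib 50 beside 12.7% with a median of 0.48. BGT226 gave 28 beside 24.1% of all rows with a median of 0.38. AZD8186 gave 0 called higher beside 0% (24 at an unadjusted p under 0.05, limma) with a median of 0.27, and TG100115 0 beside 0.0236% (54 at an unadjusted p under 0.05) with a median of 0.36. The counts of 24 and 54 have no share of all rows at that cutoff beside them. A fit with the replicate block, given in the closing section, called rows higher for both CKIs. The 40S and 60S proteins behaved alike in size, with medians of 0.61 and 0.60 for AZD2014 and 0.38 and 0.41 for BGT226. The P-stalk had 3 of 3 higher with AZD2014 and Omipalisib and 2 of 3 with the other 3 mTOR-listed CKIs.

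Called higher with all 5 mTOR-listed CKIs were 19 rows, among them *Rpl3*, *Rplp0*, *Rplp1*, *Rps3*, *Rps19*, *Rpl22* and *Rpl22l1*. With 4 of the 5 it was 30 rows, *Rps6* among them, and with none of them 14. The same counts were not made over all rows, and all 5 fold changes share the DMSO samples, so the counts are a description only. The 19 rows also need a call with Apitolisib, for which fits with a single sample left out gave 0 to 57 rows higher. Few of the Apitolisib calls remained without the low DMSO sample, as given below. *Rplp0* rose 1.49-fold with AZD2014 (adjusted p = 0.000135) and 1.29-fold with Apitolisib (adjusted p = 0.0305), *Rpl3* 1.57-fold and 1.35-fold (adjusted p = 0.000778 and 0.0439), and *Rps6* 1.52-fold with AZD2014 and 1.56-fold with PF04691502 (adjusted p = 0.00531 and 0.0069). Few rows fell. *Rps19bp1* fell to 0.411 of DMSO with AZD2014 (adjusted p = 4.58e-07) and 0.643 with PF04691502 (adjusted p = 0.0304), and *Rps27l* to 0.794 with Omipalisib (adjusted p = 0.0496). The shares of all rows called lower with these CKIs were 13.5, 4.22 and 8.16%.

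The low DMSO sample moved these counts. Without it AZD2014 gave 52, Omipalisib 48, PF04691502 37, BGT226 20 and Apitolisib 2 rows higher, with medians of 0.54, 0.51, 0.50, 0.34 and 0.44. Fits with 1 CKI sample left out reached 0 for Apitolisib (without replicate 3), 7 for BGT226 and 14 for PF04691502 (each without replicate 1), BGT226 fell to 1 after the new scaling, and Apitolisib had 0 once a term for the mitochondrial share entered the fit with the replicate block. Apitolisib also gave 6 without replicate 2, Omipalisib 40 without replicate 1 or replicate 2, and TG100115 18 without DMSO set 2 replicate 1 and 5 without DMSO set 1 replicate 1. The mean mitochondrial share was 2.93% with Apitolisib and 1.15% in DMSO. The share of all rows called was not taken in the fits of this paragraph.

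**Figure D5:**
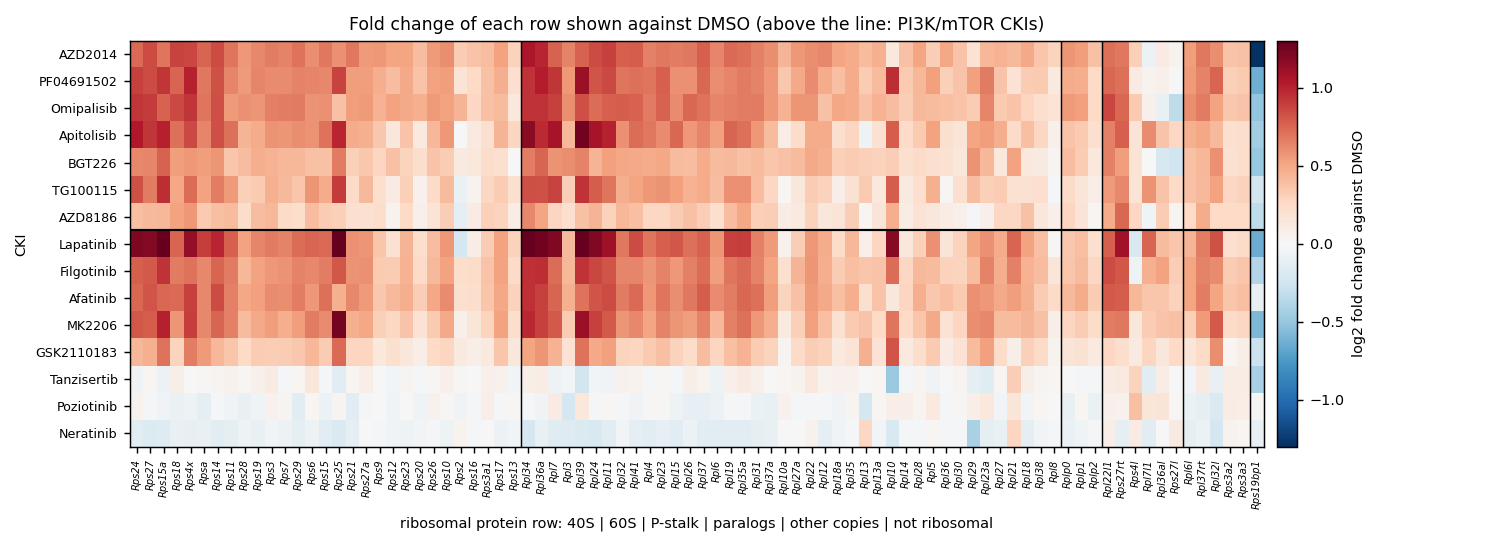
Log2 fold change against DMSO (colour, red higher and blue lower) of 84 of the 85 rows (columns, grouped by subunit and ordered by class difference) with the 7 PI3K and mTOR inhibitors (above the line) and 8 other CKIs (below). AZD2014 is red over nearly all rows, with a median of 0.57 and *Rps19bp1* at -1.28, and Neratinib is near 0, with a median of -0.08.

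A rise against DMSO was not particular to the class. The median over the 85 rows was above 0 with 56 of the 58 CKIs, running from -0.08 to 0.57 with a median of 0.31, and with 39 CKIs no row was called in either direction. Lapatinib, an inhibitor of EGFR and HER2, gave the second highest median, 0.57, with 69 rows higher beside 18.1% of all rows and 1 lower, *Rps19bp1* (-0.65, adjusted p = 0.0207), beside 5.26% called lower. Filgotinib, a JAK1 inhibitor, gave 61 beside 6.1% with a median of 0.53, and Afatinib, which binds EGFR and HER2 covalently, 61 beside 9.06% with a median of 0.52. Other short rows moved with Lapatinib as well, with 46.1% called higher and a median of 0.52, compared with 12.1% and 0.27 for AZD2014, and the part that transcript length has in these rises was not tested. The lowest medians were those of Neratinib (-0.08, 0% of all rows higher), Poziotinib (-0.01, 0%) and Tanzisertib (0.02, 0.00787%), each with 0 of the 85 rows called by limma and 0 higher at an unadjusted p under 0.05. Neratinib and Poziotinib are, like Lapatinib and Afatinib, inhibitors of EGFR family kinases. The AKT inhibitors MK2206 and GSK2110183 gave 9 rows higher beside 0.983% with a median of 0.47 and 0 beside 0% (22 at an unadjusted p under 0.05) with a median of 0.28. The count of 22 has no share of all rows at that cutoff beside it.

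The third comparison set the 5 mTOR-listed CKIs against the 2 without mTOR. Of the 85 rows, 2 were higher beside 1.9% of all rows, which is near the background, and 0 were lower, while 22 were higher and 2 lower at an unadjusted p under 0.05 (limma). At that unadjusted cutoff 1176 of all 12714 rows were higher and 1074 lower. The median difference was 0.20, against 0.02 for all rows, and 80 of 85 were above 0. The called rows, named after their values were seen, were *Rpl10a* with 0.28 ± 0.074 (adjusted p = 0.017) and *Rpl27a* with 0.32 ± 0.097 (adjusted p = 0.0497), both of the 60S subunit. *Rpl10a* lay at log2 means of 12.13 with AZD2014, 12.14 with Omipalisib, 12.07 with BGT226, 12.03 with PF04691502 and 11.78 with Apitolisib, against 11.78 with AZD8186, 11.72 with TG100115 and 11.69 in DMSO, so Apitolisib stood with the inhibitors without mTOR. Only 2 CKIs stood on one side, and the count was 0 without AZD8186, without TG100115 or without Omipalisib, 1 without AZD2014, BGT226 or PF04691502 and 10 without Apitolisib.

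The rows also differed in how much they varied between samples of the same group. The SD within groups on the log2 scale ran from 0.094 for *Rpl10a* to 0.71 for *Rpl10*, with a median of 0.24, against 0.31 for all rows and 0.21 for 1776 other rows with a mean of at least 1000. Over 0.4 lay 18 rows, among them the abundant *Rpl34* (0.54), *Rps24* (0.52), *Rps27* (0.51), *Rpl24* (0.51) and *Rpl7* (0.51). In DMSO *Rps27* ran from 1748 to 4313, a CV of 35.9%, whereas *Rps13* had a CV of 3.73% and *Rpl10a* 6.20%. Across the 85 rows, which share their samples, rows with a larger spread also had a larger class difference (Spearman's rho 0.54), while the gene-model length (0.05) and the mean level (0.09) had little relation to it. Of the 5 rows with the largest class differences, *Rpl34*, *Rpl36a*, *Rps24*, *Rps27* and *Rps15a*, only *Rpl36a* and *Rps27* were called.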

How the data were processed

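PolyA RNA was copied by SMART-seq2 and tagmented with Tn5. Per the paper's methods, the authors aligned reads to mm10 with TopHat2 2.1.1, keeping 1 alignment per read, removed blacklisted regions (bedtools 2.29.2), counted reads on RefSeq exons, scaled samples on invariant genes and tested with DESeq2. The deposited values are these scaled counts rounded to whole numbers, treated here as a score without a fixed unit, so no count test was run. Depth is known only as the scaled totals. Groups came from the labels, the class of 7 from the study's target annotation, and 0 columns lacked a sample.

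Here limma 3.58.1 (R 4.3.3, variance trend) was run on log2(value + 1) over the 12714 rows with a mean of at least 10, with p-values adjusted over all of them by Benjamini and Hochberg. The class comparison used 1 mean per CKI (7 against 51), and CKIs were set against DMSO in a fit of all 180 samples. A fold change on this scale understates changes of low rows. The study describes the replicates as biological, but the labels do not say what they share, so p-values measure only the spread between these samples. The scripts were tested on simulated data. The members, lists and comparisons were chosen with earlier results of these data known. Named rows are the 5 largest called differences in each direction (3 were lower), a list of well-known proteins and all paralogs, and up to 3 called genes of each other list. Alternatives were pseudocounts, filters, scaling, trend, DMSO sets, covariates, a replicate block and leaving out samples or CKIs. Sums of parent and pseudogene rows were added after seeing the data. Coordinates are mm10. Values of some single genes are not reported here.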

Additional observations from a re-analysis of the deposited data

Results flagged for a closer look

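In the 6 DMSO samples, 1 sample lay far below the other 5 in 3 of 32 values examined, and chance alone flags about 1 in 20. The sample was replicate 2 of set 2 each time, with 3168 for *Rpl3* (the nearest other sample had 4412), 334 for *Rps6* (511) and 11690 for *Rplp0* (13960). This sample also had the lowest share of ribosomal protein rows, 2.05%, and the lowest mitochondrial share, 0.759%, of the DMSO samples.

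The effect of the inhibitors with mTOR among their listed targets differed from that of the inhibitors without it, by a test of the difference, in 2 rows. The log2 difference was 0.28 for *Rpl10a* (SE 0.074, adjusted p = 0.017, limma) and 0.32 for *Rpl27a* (SE 0.097, adjusted p = 0.0497). This is 2 of 85 rows beside 1.9% of all rows, near the background. The count was 0 after scaling again by the median of ratios and 0 without AZD8186, TG100115 or Omipalisib.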

How the results depend on the processing

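Counts of called rows and medians were judged by unlike limits, so their stability cannot be compared. Of the counts, 281 stayed within 1.5 times and 87 did not. A median was taken as moved if it shifted by at least 0.12 for the class, the SD over the 7 CKIs. That limit is wide beside the class median of 0.17. For each CKI against DMSO the limit was 0.19, the SD between replicates. By these limits 167 medians stayed and 1 moved, that of BGT226 against DMSO, 0.19 after scaling again by the median of ratios. The causes were not tested. Of the 26 named rows, 17 were called, of which *Rps18*, *Rpl22l1*, *Rpl3* and *Rplp0* kept their call in every setting and 13 lost it in some. Of the 9 not called, *Rplp1*, *Rplp2*, *Rps4x* and *Rpl11* passed in some settings, and *Rps4l* changed sign, with -0.012 after the new scaling and a leave-one-out range of -0.0050 (without Omipalisib) to 0.034 (without PF04691502).

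For the class of 7 against 51, rows called higher numbered 22 with no filter and 22 after the new scaling, and leave-one-out gave 8 to 58 higher and 1 to 3 lower. For mTOR-listed against PI3K-only CKIs it was 1 with no filter, 0 after the new scaling and 1 without the variance trend, and in the fit of all samples 16 higher and 1 lower, with a leave-one-out range of 0 to 10 higher and 0 to 1 lower. The fit of all samples counts the samples of a CKI separately, so its 16 is not set against the fits on CKI means. Against DMSO, Apitolisib gave 20 with no filter, 16 after the new scaling, 0 with DMSO set 1 alone, 6 with set 2 alone and 27 with only its own samples and DMSO in the fit, and 0 to 57 by leave-one-out. BGT226 gave 1 after the new scaling, 14 with set 1 alone, 14 with only its own samples and DMSO, and 7 to 39 by leave-one-out. PF04691502 gave 28 with set 1 alone, 8 with only its own samples and DMSO, and 14 to 69 by leave-one-out, Omipalisib 40 to 64 and AZD2014 44 to 65. TG100115 gave 1 with no filter, 1 with a minimum mean of 50, and 0 to 18 by leave-one-out. Summing parent and pseudogene rows, chosen after seeing the data, gave 45 higher and 3 lower in the class when paralogs, further copies and *Rps19bp1* are counted with the sums, and 40 and 0 over the sums alone.

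Samples with the same replicate number tended to deviate together (mean correlation 0.22, over 0.1 in 3811 of 5307 pairs, against -0.11 for different numbers), and 155 of 180 samples were closest to their own number, but no label says what a number shares, so the numbers were not treated as pairs. With the replicate block the class had 65 higher rows, mTOR-listed against PI3K-only CKIs 20 higher and 2 lower, AZD8186 1 and TG100115 22. With the mitochondrial share and the replicate block together these were 22 higher and 3 lower for mTOR-listed against PI3K-only, 0 for Apitolisib and 2 for AZD8186. For the class and for mTOR-listed against PI3K-only CKIs, these fits count the samples of a CKI separately. Those counts are therefore not set against the fits on CKI means. The share of all rows called was not taken for the counts of this paragraph, nor for most other counts of this section, so they have no background.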
